A study of Mus musculus with 8 samples.

Results

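The genes described here are 10 regulators of the primitive streak and mesoderm (T, Eomes, Mixl1, Mesp1, Hand1, Tbx20, Tbx6, Kdr, Wnt3 and Isl1) in mouse embryonic stem (ES) cells that lack the Polycomb proteins Pcgf3, Pcgf5 or both. They were matched by symbol to the Ensembl identifiers of the deposited count tables, and all 10 were found among the 47069 genes listed. The comparisons ask how much RNA of each regulator the cells hold once these Polycomb proteins are gone. The 4 genotypes, with 2 libraries each per the labels, were double knockout cells without Pcgf3 and Pcgf5 (DKO), cells without Pcgf3 (Pcgf3KO), cells without Pcgf5 (Pcgf5KO) and wild type cells (WT). All were C57BL/6 ES cells grown in serum with leukemia inhibitory factor on fibroblast feeders that had been inactivated with mitomycin-C, and the knockouts were made with Cas9. The labels do not say how many clones or separate cultures stand behind a group, so p-values measure only the spread between these libraries, which may be technical.

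The primitive streak is the furrow of the gastrulating embryo through which epiblast cells leave to become mesoderm and endoderm. Wnt3 and Nodal signals start it, the transcription factors T (Brachyury), Eomes and Mixl1 mark the cells in it, and Mesp1, Tbx6, Hand1, Isl1, Tbx20 and the receptor Kdr mark the mesoderm that leaves it for the heart, the somites, the blood and the vessels. In ES cells kept undifferentiated these genes are mostly silent or barely transcribed, and many of them are classical Polycomb targets. Pcgf3 and Pcgf5 are RING finger subunits of variant Polycomb repressive complexes that add ubiquitin to histones.

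The 7 complete tables held 12652616 to 19923964 counts each, and the table of WT replicate 1, as used here, ends after 8093 genes. WT is therefore 1 library (replicate 2) for all members except Eomes, Tbx6 and Kdr, and in the test over all genes it is assumed to vary like the other groups. Pcgf3 fell in Pcgf3KO (log2 fold change −0.79 ± 0.14 SE, adjusted p = 0.021) and Pcgf5 in Pcgf5KO (−0.94 ± 0.18, adjusted p = 0.0292), while in DKO both were lower without passing the test (Pcgf3 −0.51, adjusted p = 0.0899, and Pcgf5 −0.60, adjusted p = 0.114). RNA can persist after Cas9 editing, so this is a check of the labels and not of the protein. ES cell markers summed to 3320 and 3525 CPM (counts scaled to library size) in DKO, 3628 and 3758 in Pcgf3KO, 3862 and 3875 in Pcgf5KO, and 3118 in WT, and Pou5f1, Nanog and Sox2 were high in every library. The WT library thus had the lowest sum. Of the 12 markers, 3 were higher in each knockout than in WT at an adjusted p of at most 0.05, and 0 were lower. The 2 DKO libraries were furthest apart of the replicate pairs, with a chi-square per gene of 19.3, against 3.39 for Pcgf3KO and 1.90 for Pcgf5KO.

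Levels below are CPM scaled by library with the TMM method. Each test is the edgeR quasi-likelihood test over the 15669 genes that passed the filter on low counts in the 7 complete libraries. A gene is called where its Benjamini-Hochberg adjusted p over all of these genes is at most 0.05. Of the 10 regulators 9 passed that filter, and Mesp1 did not. Per kilobase of exon Hand1 had the highest level in 6 of the 7 libraries (2.59 to 23.2 CPM per kb over all 7), and Kdr was above it in Pcgf5KO replicate 2 (2.91). Kdr ranged from 0.963 to 3.37 CPM per kb, Eomes from 1.05 to 2.18 and Tbx20 from 0.449 to 1.34, and the highest level of any other member was 0.635 (Mixl1 in Pcgf5KO replicate 2).

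**Figure D1:**
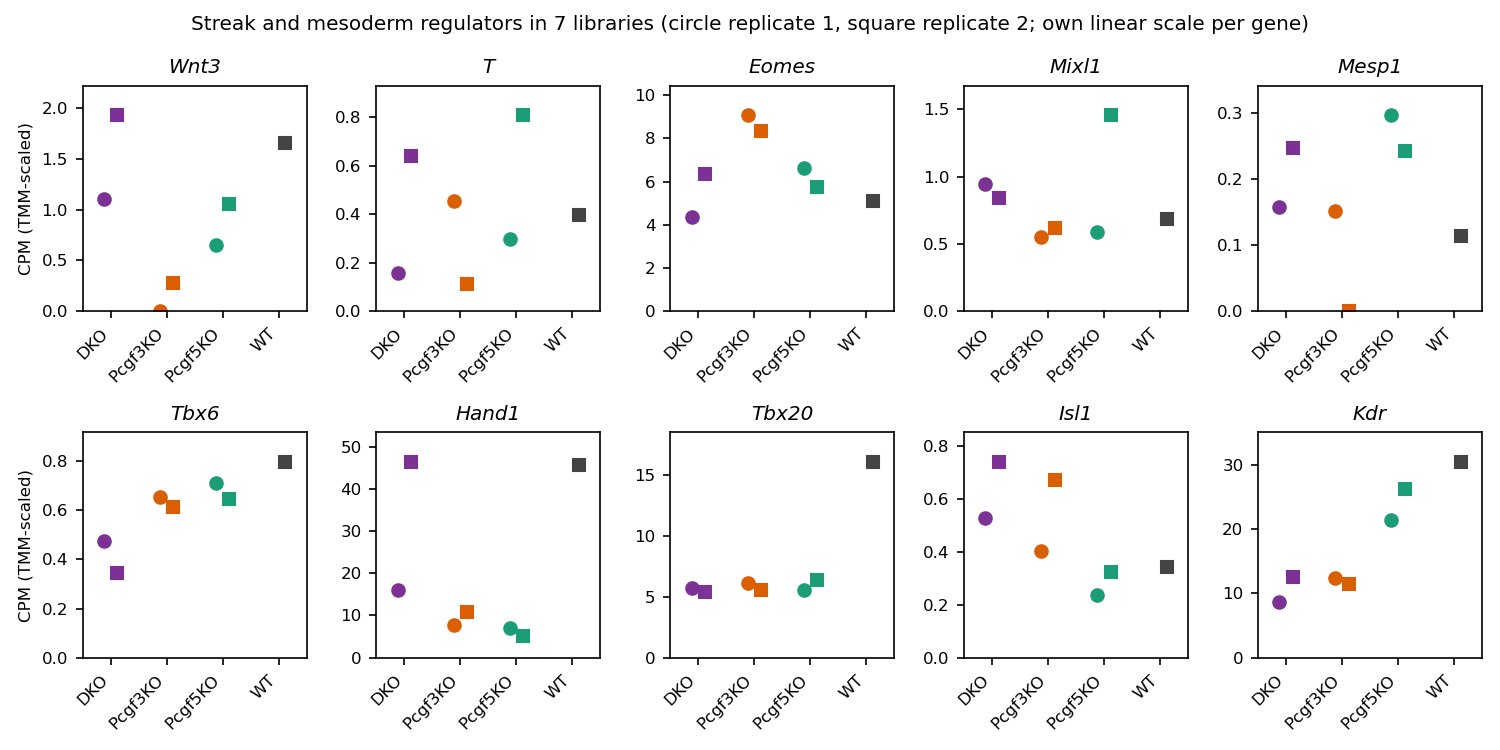
CPM (TMM-scaled, linear axis from 0 for each gene) of the 10 regulators in the 7 complete libraries, with DKO, Pcgf3KO, Pcgf5KO and WT along the horizontal axis, circles for replicate 1 and squares for replicate 2. Tbx20 lies between 5.39 and 6.39 CPM in all 6 knockout libraries and at 16.1 CPM in WT, while the 2 DKO libraries are far apart at Hand1 (16.0 and 46.4 CPM).

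The regulators called against WT were Tbx20, Kdr and Hand1, and each of them was lower where it was called. In DKO cells 2 of the 9 tested members were lower, Tbx20 and Kdr, and none was higher (of all genes 1.89% were called lower and 3.22% in either direction). In Pcgf3KO cells 3 were lower, Hand1, Tbx20 and Kdr (1.28% of all genes called lower and 2.36% in either direction), and in Pcgf5KO cells 2 were lower, Hand1 and Tbx20 (1.68% of all genes called lower and 2.99% in either direction). The streak genes proper, T, Eomes, Mixl1 and Wnt3, and the paraxial gene Tbx6 were called in none of these 3 comparisons, where edgeR gave 2, 5 and 2 members at an unadjusted p under 0.05 in DKO, Pcgf3KO and Pcgf5KO cells, and DESeq2 called 2 in each. In Pcgf3KO minus WT, Wnt3 was called lower without the filter on low counts (adjusted p = 3.9e-06), with only the groups compared in the fit (1.07e-05) and without DKO replicate 1 or 2 (8.4e-05 and 9.99e-05). Eomes was called higher there with only the groups compared (0.77, adjusted p = 0.000651) and without DKO replicate 1 or 2 (0.77 in each, adjusted p = 0.00246 and 0.00273). Kdr in Pcgf5KO minus WT was called lower in the same kinds of fit, with only the groups compared (−0.37, adjusted p = 0.00104) and without DKO replicate 1 or 2 (0.0144 and 0.0149). The fits that called Wnt3, Eomes and Kdr in this way also called far more of all genes than the main fit. Such calls are therefore not particular to these members. The median log2 fold change of the 9 tested members was −0.12 in DKO, −0.45 in Pcgf3KO and −0.31 in Pcgf5KO, against 0.01, 0.00 and 0.00 over all genes. The 3 comparisons share the single WT library, so they are not independent of each other.

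**Figure D2:**
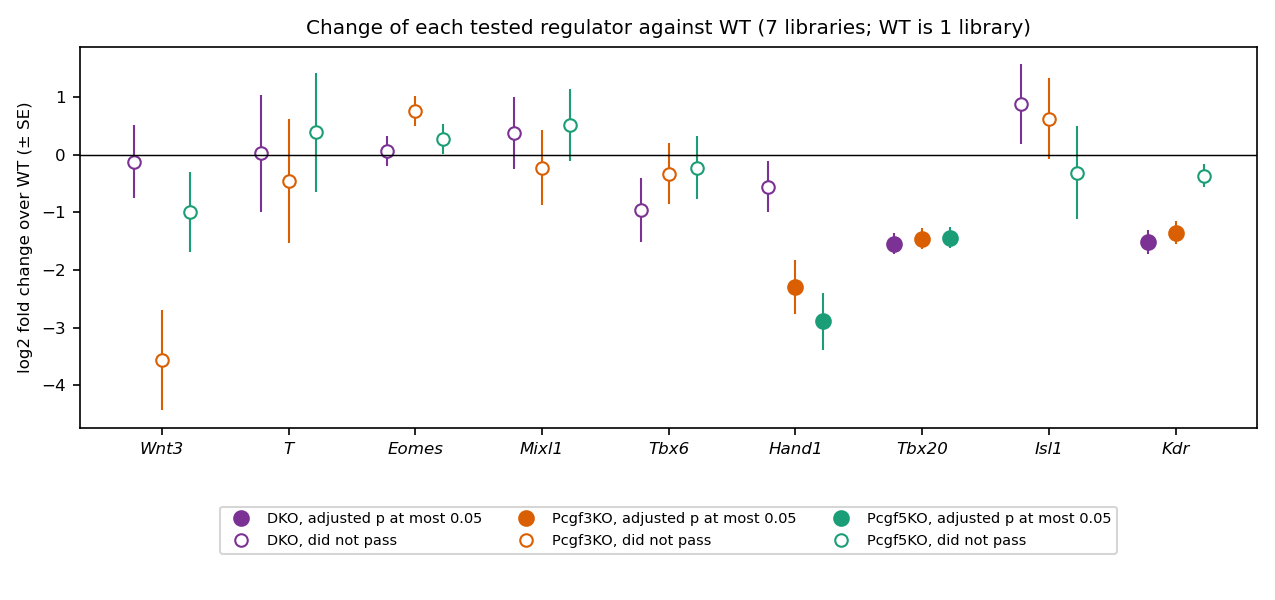
Log2 fold change over WT (± SE) of the 9 tested regulators in DKO, Pcgf3KO and Pcgf5KO cells, with filled points at an adjusted p of at most 0.05 and open points where the test was not passed. Tbx20 is filled for all 3 genotypes between −1.54 and −1.44, Kdr for DKO and Pcgf3KO, and Hand1 for Pcgf3KO and Pcgf5KO.

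Tbx20, which was also called lower in Pcgf5KO, and Kdr were the members called lower in both genotypes without Pcgf3. Their promoter windows, 250 bases before to 50 after the annotated start, are shown because Polycomb complexes gather at CG-rich promoters, and capitals mark each CG dinucleotide. They come from RefSeq (GRCm38.p6, minus strand, written in the direction of transcription) and cover chr9:24774254-24774553 for Tbx20 and chr5:75978406-75978705 for Kdr.
Tbx20: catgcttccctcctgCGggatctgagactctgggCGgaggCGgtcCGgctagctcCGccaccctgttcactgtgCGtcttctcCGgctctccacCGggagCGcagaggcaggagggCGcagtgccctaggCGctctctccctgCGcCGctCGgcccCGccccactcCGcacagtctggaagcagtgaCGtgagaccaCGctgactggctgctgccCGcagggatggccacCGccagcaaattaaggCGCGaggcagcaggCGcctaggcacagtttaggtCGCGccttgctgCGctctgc
Kdr: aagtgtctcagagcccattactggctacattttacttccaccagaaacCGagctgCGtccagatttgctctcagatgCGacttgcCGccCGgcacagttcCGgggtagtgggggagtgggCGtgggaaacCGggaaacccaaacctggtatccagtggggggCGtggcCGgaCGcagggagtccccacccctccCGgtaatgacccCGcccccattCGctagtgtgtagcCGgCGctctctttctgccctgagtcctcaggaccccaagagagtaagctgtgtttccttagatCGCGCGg
The Tbx20 window holds 26 CG dinucleotides and the Kdr window 19, against a median of 7 over the 32851 windows of the RefSeq table, of which 16.9% hold at least 26 and 28.1% at least 19. A window was found for 8 of the 10 members and not for Hand1 or Mixl1, so Hand1, which also fell, could not be compared. The others held 37 (Isl1), 24 (Wnt3), 17 (T), 10 (Eomes), 7 (Tbx6) and 4 (Mesp1). Among these 8 windows a CG-rich one was thus not a feature of Tbx20 and Kdr alone. The T-box core motif AGGTGT, searched on both strands, was found in 2 of the 8 windows (T and Mesp1), and 13.7% of all windows hold it.

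Tbx20 (ENSMUSG00000031965, chromosome 9, 24720812 to 24774303, minus strand, with all gene positions in mm10) encodes a T-box factor of the developing heart. It had 5.69 and 5.39 CPM in DKO, 6.15 and 5.59 CPM in Pcgf3KO, 5.56 and 6.39 CPM in Pcgf5KO, and 16.1 CPM in WT (283 counts). Every knockout library was below the WT library, and the 3 knockout genotypes overlapped each other. The log2 fold change against WT was −1.54 ± 0.18 in DKO (adjusted p = 0.00288), −1.45 ± 0.18 in Pcgf3KO (adjusted p = 0.00488) and −1.44 ± 0.19 in Pcgf5KO (adjusted p = 0.00532). Mean CPM was thus 2.91-fold lower in DKO, 2.75-fold lower in Pcgf3KO and 2.70-fold lower in Pcgf5KO than in WT. Between the knockouts the differences were −0.09 ± 0.17 (DKO minus Pcgf3KO), −0.10 ± 0.17 (DKO minus Pcgf5KO) and 0.02 ± 0.17 (Pcgf5KO minus Pcgf3KO). The DKO value thus differed from each single knockout by less than its SE, and the interaction (the change in DKO less what both single knockouts would add up to) was 1.35 ± 0.25 (adjusted p = 0.0222). The DKO call held without any one of the 6 knockout libraries, the Pcgf3KO call was lost without either Pcgf3KO replicate (adjusted p = 0.0702 and 0.0797 without replicates 1 and 2), and the Pcgf5KO call without either Pcgf5KO replicate (0.102 and 0.058). The interaction was not called without any 1 of the 4 single knockout libraries (adjusted p = 0.102 to 0.156).

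Hand1 (ENSMUSG00000037335, chromosome 11, 57828705 to 57832818, minus strand) encodes a basic helix-loop-helix factor of lateral plate mesoderm, the left ventricle and trophoblast giant cells. It had 16.0 and 46.4 CPM in DKO (303 and 939 counts), 7.81 and 10.9 CPM in Pcgf3KO, 6.98 and 5.18 CPM in Pcgf5KO, and 45.8 CPM in WT. All 4 single knockout libraries lay below the WT library and below both DKO libraries, and the DKO libraries spanned the range up to the WT value. Against WT, Hand1 fell in both single knockouts, with a log2 fold change of −2.30 ± 0.47 in Pcgf3KO (adjusted p = 0.0378) and −2.89 ± 0.49 in Pcgf5KO (adjusted p = 0.0196). In the single knockouts mean CPM was 4.91-fold (Pcgf3KO) and 7.53-fold (Pcgf5KO) lower than in WT. The DKO value, −0.55 ± 0.45 (adjusted p = 0.534), did not pass the test.

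The 2 DKO libraries differed 2.91-fold at Hand1, and 1.10% of tested genes differed as much between them. Without DKO replicate 1 the DKO change against WT was 0.02, and without DKO replicate 2 it was −1.52 (adjusted p = 1.51e-11, with the spread then taken from the Pcgf3KO and Pcgf5KO pairs alone), so no DKO level of Hand1 can be given from the pair. The Pcgf3KO call was lost in DESeq2 (adjusted p = 0.0935), without either Pcgf3KO replicate (0.265 and 0.17) and without either Pcgf5KO replicate (0.0881 and 0.0883), and the Pcgf5KO call without either Pcgf5KO replicate (0.152 and 0.181). The size of the fall stayed between −2.55 and −1.95 in Pcgf3KO and between −3.14 and −2.47 in Pcgf5KO under all alternatives run. All of these used WT replicate 2 as the only WT library, so they could not check the WT level of Hand1.

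Isl1 (ENSMUSG00000042258, chromosome 13, 116298281 to 116309689, minus strand), a LIM homeobox gene of the second heart field, was near the limit of detection. Its counts were 10 and 15 in DKO, 8 and 12 in Pcgf3KO, 4 and 4 in Pcgf5KO, and 6 in WT. DKO over WT the ratio of summed counts per library size was 1.87 (95% interval 0.747 to 5.56, exact and for counting error only), so a difference was not detectable at this depth. The Pcgf5KO libraries were the lowest, and the intervals of their ratio of 0.80 (0.244 to 2.80) and of the Pcgf3KO ratio of 1.55 (0.601 to 4.72) included 1.

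Kdr (ENSMUSG00000062960, chromosome 5, 75932827 to 75978458, minus strand), the receptor for vascular endothelial growth factor that marks the mesoderm giving rise to blood and endothelium, was low wherever Pcgf3 was missing. It had 8.70 and 12.6 CPM in DKO, 12.4 and 11.5 CPM in Pcgf3KO, 21.4 and 26.3 CPM in Pcgf5KO, and 30.5 CPM in WT. The 4 libraries without Pcgf3 were all below the Pcgf5KO and WT libraries, and DKO and Pcgf3KO overlapped. Kdr fell by 1.51 ± 0.21 on the log2 scale in DKO (adjusted p = 0.00563) and by 1.35 ± 0.21 in Pcgf3KO (adjusted p = 0.012) against WT, and the Pcgf5KO value of −0.36 ± 0.21 did not pass (adjusted p = 0.373). Mean CPM was 2.86-fold lower in DKO and 2.55-fold lower in Pcgf3KO than in WT. Without WT in the comparison Kdr was also lower in DKO than in Pcgf5KO (−1.15 ± 0.18, adjusted p = 0.022). Pcgf5KO minus Pcgf3KO was 0.99 ± 0.18 and missed the threshold (adjusted p = 0.0994), while DESeq2 called it (adjusted p = 0.0014).

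The Kdr fall against WT depends on which WT library is used. Scaled to the genes that all 8 tables list, Kdr had 49.2 and 71.3 CPM in DKO, 69.8 and 65.1 CPM in Pcgf3KO, 120 and 147 CPM in Pcgf5KO, and 82.3 and 172 CPM in WT. The WT libraries differed 2.09-fold, and 2.41% of the 2702 genes tested over the 8 libraries differed as much between them. All 4 libraries without Pcgf3 still lay below all 4 with it, the nearest being DKO replicate 2 at 71.3 CPM and WT replicate 1 at 82.3 CPM. With both WT libraries the DKO change was −1.07 ± 0.29 (adjusted p = 0.0453) and the Pcgf3KO change −0.91 ± 0.29 (adjusted p = 0.0971), where 8.11% and 5.51% of the genes were called. DKO minus Pcgf5KO was −1.14 ± 0.29 in that fit and did not pass (adjusted p = 0.0602). With WT replicate 1 as the only WT library they were −0.46 (adjusted p = 0.28) and −0.29 (adjusted p = 0.587). In the 7-library test the Pcgf3KO call was also lost without Pcgf3KO replicate 1 or 2 (adjusted p = 0.109 and 0.13), and the call of DKO against Pcgf5KO was lost without any 1 of the 4 single knockout libraries (adjusted p = 0.0708 to 0.324) and with only the groups compared in the fit (0.0905).

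**Figure D3:**
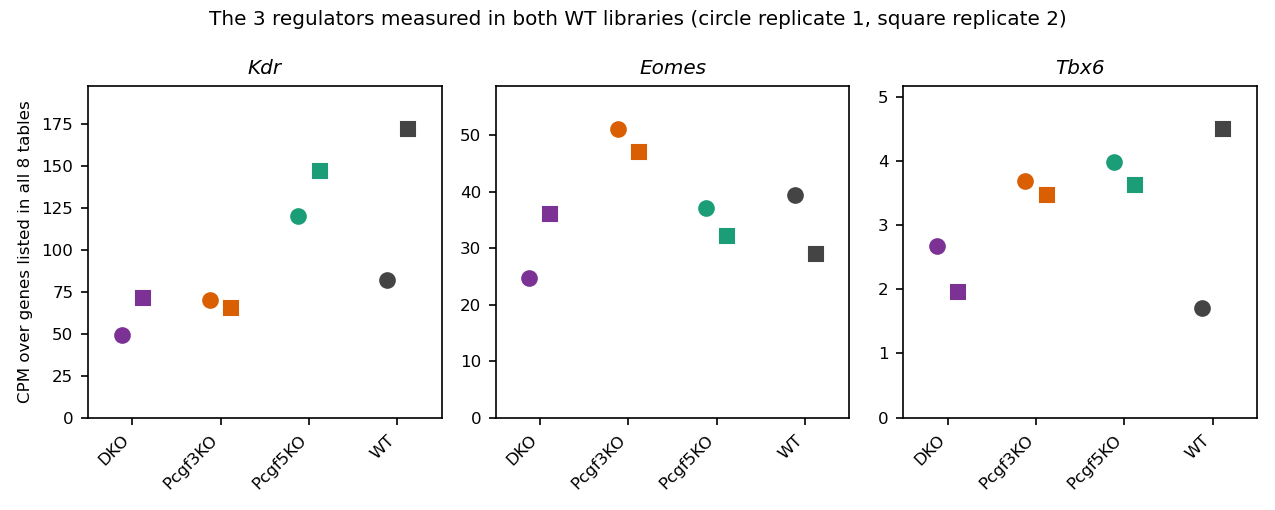
CPM over the genes listed in all 8 tables for Kdr, Eomes and Tbx6, the members that both WT libraries measure, with groups along the horizontal axis, circles for replicate 1 and squares for replicate 2. The WT pair is 82.3 and 172 CPM at Kdr, 39.4 and 28.9 at Eomes and 1.71 and 4.50 at Tbx6, so 2 of the 3 genes differ more than 2-fold within WT. At Tbx6 this rests on only 6 and 14 counts, against 288 and 535 at Kdr.

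Wnt3 (ENSMUSG00000000125, chromosome 11, 103774150 to 103817957, plus strand) encodes the ligand needed for the streak to form. It had 21 and 39 counts in DKO, 0 and 5 in Pcgf3KO, 11 and 13 in Pcgf5KO, and 29 in WT. As CPM this was 1.11 and 1.93 in DKO, 0 and 0.28 in Pcgf3KO, 0.651 and 1.05 in Pcgf5KO, and 1.65 in WT, and the count of 0 allows up to 0.151 CPM. The Pcgf3KO libraries were lower than all others and overlapped none, DKO spanned the WT value, and Pcgf5KO overlapped neither WT nor DKO. The ratio of Pcgf3KO to WT was 0.0803 (95% interval 0.0243 to 0.21, counting error only). With the spread between libraries included, the fall in Pcgf3KO was −3.56 ± 0.87 on the log2 scale and did not pass (adjusted p = 0.0708), nor did DKO minus Pcgf3KO (3.45 ± 0.77, adjusted p = 0.0632) or the interaction (4.43 ± 1.06, adjusted p = 0.0539). The fitted value depends on which Pcgf3KO library is kept: it was −2.53 without replicate 1, which has 0 counts, and −7.87 without replicate 2, where the kept library is at 0 and the value is no bound.

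Eomes (ENSMUSG00000032446, chromosome 9, 118478212 to 118486132, plus strand), a T-box factor of the streak and of trophoblast stem cells, was highest in Pcgf3KO. It had 4.37 and 6.38 CPM in DKO, 9.07 and 8.33 CPM in Pcgf3KO, 6.63 and 5.74 CPM in Pcgf5KO, and 5.12 CPM in WT. Both Pcgf3KO libraries were above the other 5 complete libraries, and DKO overlapped Pcgf5KO and WT. The changes against WT did not pass the test: 0.07 ± 0.26 in DKO (adjusted p = 0.908), 0.76 ± 0.26 in Pcgf3KO (adjusted p = 0.179) and 0.28 ± 0.27 in Pcgf5KO (adjusted p = 0.611). DKO minus Pcgf3KO was −0.69 ± 0.20 (adjusted p = 0.13). Over the genes in all 8 tables Eomes had 51.1 and 47.1 CPM in Pcgf3KO and 39.4 and 28.9 CPM in WT, and with both WT libraries the Pcgf3KO change was 0.52 ± 0.21 (adjusted p = 0.199).

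T (ENSMUSG00000062327, chromosome 17, 8434423 to 8442496, plus strand), the founding T-box gene and the standard marker of the streak, had 3 and 13 counts in DKO, 9 and 2 in Pcgf3KO, 5 and 10 in Pcgf5KO, and 7 in WT. The replicates of each knockout were further apart than the groups, and all groups overlapped. Mixl1 (ENSMUSG00000026497, chromosome 1, 180693043 to 180697034, minus strand), a homeobox gene of streak and endoderm precursors, had 18 and 17 counts in DKO, 11 and 11 in Pcgf3KO, 10 and 18 in Pcgf5KO, and 12 in WT. Over WT the ratio of T was 1.02 in DKO (95% interval 0.399 to 2.94), 0.732 in Pcgf3KO (0.259 to 2.23) and 1.29 in Pcgf5KO (0.494 to 3.73), which leaves room for more than a 2-fold change either way. The Mixl1 ratios of 1.31 in DKO (0.662 to 2.76), 0.853 in Pcgf3KO (0.404 to 1.89) and 1.40 in Pcgf5KO (0.69 to 3.02) likewise included 1.

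The genes of mesoderm just leaving the streak stayed at a few counts. Mesp1 (ENSMUSG00000030544, chromosome 7, 79792241 to 79793788, minus strand), a basic helix-loop-helix gene of the earliest heart mesoderm, had 3 and 5 counts in DKO, 3 and 0 in Pcgf3KO, 5 and 3 in Pcgf5KO, and 2 in WT, and the 0 allows up to 0.168 CPM. It was not tested, and its ratio over WT of 1.79 in DKO has a counting interval of 0.358 to 17.3. Tbx6 (ENSMUSG00000030699, chromosome 7, 126781483 to 126785560, plus strand), which directs cells to paraxial mesoderm, had 9 and 7 counts in DKO, 13 and 11 counts in Pcgf3KO, 12 and 8 counts in Pcgf5KO, and 6 and 14 counts in the WT libraries. On the scale of the genes in all 8 tables both DKO libraries (2.68 and 1.96 CPM) lay within the WT pair (1.71 and 4.50 CPM), and the single knockouts did too. No change in Mesp1 or Tbx6 was detectable at this depth.

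Setting the knockouts against each other, DKO cells had more Hand1 and less Kdr than Pcgf5KO cells. Hand1 was higher in DKO by 2.34 ± 0.44 on the log2 scale (adjusted p = 0.0373), with both DKO libraries (16.0 and 46.4 CPM) above both Pcgf5KO libraries (6.98 and 5.18 CPM). These were the 2 members called there, where 2.28% of all genes were called. The Hand1 value was 1.37 without DKO replicate 2 and 2.90 without DKO replicate 1, and the call was lost without any 1 of the 4 single knockout libraries (adjusted p = 0.0872 to 0.376) and with only the groups compared in the fit (0.109). Between DKO and Pcgf3KO edgeR called 0 members, with 3 at an unadjusted p under 0.05 (Hand1, Wnt3 and Eomes), DESeq2 also called 0, and 1.74% of all genes were called by edgeR. Hand1 in that comparison was 1.75 ± 0.41 (adjusted p = 0.0719). Between Pcgf5KO and Pcgf3KO edgeR called 0 members, with 3 at an unadjusted p under 0.05, DESeq2 called 1 (Kdr), and 0.14% of all genes were called by edgeR. The 2 DKO comparisons share the DKO libraries.

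Loss of Pcgf3 went with opposite values at Hand1 depending on whether Pcgf5 was present. In cells lacking Pcgf5 (DKO minus Pcgf5KO) Hand1 was 2.34 higher on the log2 scale, and in cells with Pcgf5 (Pcgf3KO minus WT) it was 2.30 lower, a difference of 4.64 ± 0.64 (interaction, adjusted p = 0.00821). Hand1 and Tbx20 were the 2 members whose interaction was called, both positive, where 1.77% of all genes were called with a positive and 3.79% with either sign. The value in cells lacking Pcgf5 was 1.37 without DKO replicate 2 and 2.90 without DKO replicate 1. The Hand1 term was 3.67 without DKO replicate 2 and 5.20 without replicate 1, and it missed the threshold without Pcgf3KO replicate 1 (adjusted p = 0.0541) or without Pcgf5KO replicate 1 or 2 (0.071 and 0.0756). Kdr moved the same way in both settings, −1.15 without Pcgf5 and −1.35 with it, and its interaction of 0.19 ± 0.28 did not pass (adjusted p = 0.714). The single WT library enters each interaction, so for Hand1 and Tbx20 its level has no replicate check.

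**Figure D4:**
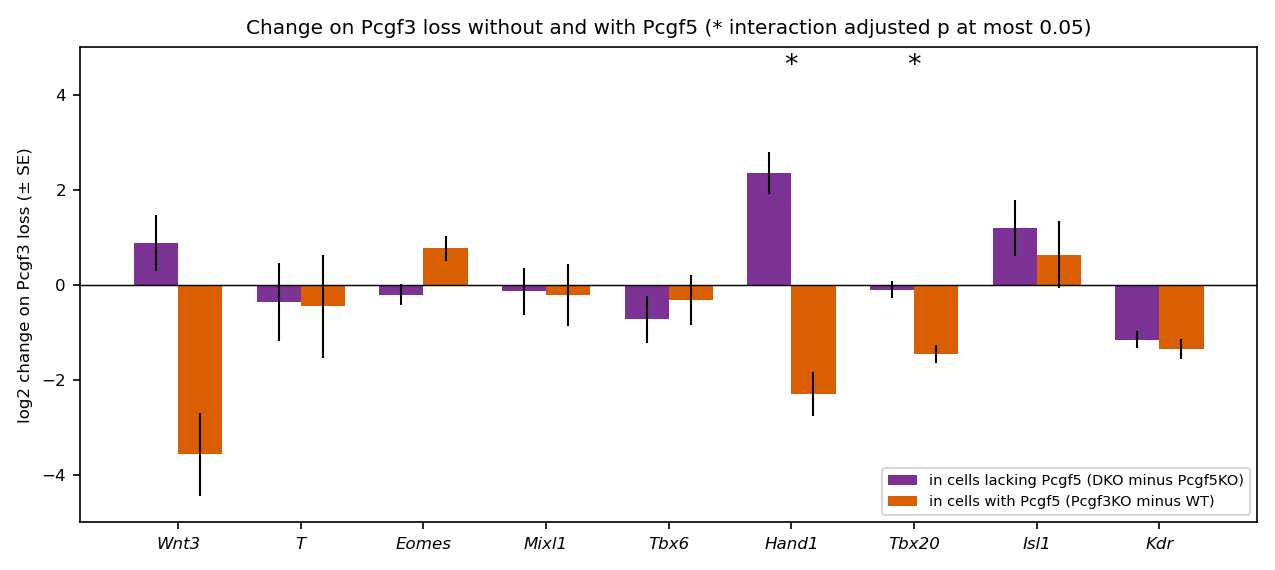
Log2 change on Pcgf3 loss (± SE) of the 9 tested regulators in cells lacking Pcgf5 (DKO minus Pcgf5KO, left bar) and in cells with Pcgf5 (Pcgf3KO minus WT, right bar), with an asterisk where the interaction was called. The Hand1 bars point in opposite directions (2.34 and −2.30), the Tbx20 bar is −0.10 without Pcgf5 and −1.45 with it, and both Kdr bars are negative (−1.15 and −1.35).

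Feeder and trophoblast RNA can be present in such cultures, so their markers are given beside these changes. The 18 feeder fibroblast markers summed to 128 and 158 CPM in DKO, 117 and 130 in Pcgf3KO, 149 and 153 in Pcgf5KO, and 205 in WT, so every knockout library was below WT, as at Tbx20. Tagln was the largest single part of this sum in WT (51.2 CPM) and had 17.0 and 17.2 CPM in DKO. Acta2 had 11.1 CPM in WT and 0.685 and 1.04 in DKO, so the DKO sums depend much on these genes. Of the 14 feeder markers tested, 4 were called lower in DKO (Acta2, Tagln, Col1a1 and Col1a2), 4 in Pcgf3KO and 1 in Pcgf5KO, and none was called higher. Values against WT were negative for 11 of the 14 in DKO, 14 in Pcgf3KO and 13 in Pcgf5KO. The 3 positive ones in DKO included Thy1 (22.1 and 33.3 CPM, against 19.8 in WT). In DKO minus Pcgf3KO 4 feeder markers were called higher and 2 lower, where 1.74% of all genes were called. The part of the feeder markers in the fall of Tbx20, Kdr and Hand1 was not tested. In bulk RNA fewer cells of a type and less RNA per cell cannot be told apart. The 11 trophoblast markers other than Eomes summed to 63.2 and 90.8 CPM in DKO, 92.0 and 91.2 in Pcgf3KO, 63.3 and 59.6 in Pcgf5KO, and 82.9 in WT, and the placental genes Prl3d1 and Tpbpa were at 0 counts in all 7 libraries. The 11 endoderm markers summed to 12.5 and 13.2 CPM in DKO, 9.27 and 8.95 in Pcgf3KO, 11.7 and 12.9 in Pcgf5KO, and 17.8 in WT. Of the 7 endoderm markers tested 1 was lower in each knockout, Dab2 (log2 fold change −1.11 in DKO, adjusted p = 0.0256, −1.67 in Pcgf3KO, adjusted p = 0.0054, and −1.0 in Pcgf5KO, adjusted p = 0.041). DESeq2 called 1 of the 7 in Pcgf3KO and 0 in DKO and Pcgf5KO, so the Dab2 calls in DKO and Pcgf5KO were lost there. Dab2 was also the largest single part of the endoderm sum in WT. Values against WT were negative for 5 of the 7 in DKO, 6 in Pcgf3KO and 5 in Pcgf5KO, and Cubn was above WT in every knockout library. Of the 8 trophoblast markers tested, Eomes included, 2 were lower in DKO, Cdx2 (−3.43) and Krt7 (−1.04, adjusted p = 0.0292), 0 in Pcgf3KO and 1 in Pcgf5KO, Krt7 (−0.97, adjusted p = 0.0427), and none was higher. Cdx2 had 71 counts over the 7 libraries, and DESeq2 called 1 of the 8 in DKO. Negative values against WT were seen for 4 of these 8 in DKO, 5 in Pcgf3KO and 6 in Pcgf5KO, and the others were positive. The part of these markers in the falls of the members was not tested either.

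Other genes of gastrulation were read from 5 lists, and most of those tested did not pass the test against WT. Among 14 streak and gastrulation signals, of which 12 were tested, 1 rose in DKO, 1 rose and 1 fell in Pcgf3KO, and 3 rose in Pcgf5KO against WT. Fgf4, a growth factor of ES cells and epiblast, rose in all 3, by 0.56 ± 0.11 in DKO (adjusted p = 0.0262), 0.53 ± 0.11 in Pcgf3KO (adjusted p = 0.0367) and 0.48 ± 0.11 in Pcgf5KO (adjusted p = 0.0467) on the log2 scale. Lefty2, the secreted inhibitor of Nodal, had 189 and 181 CPM in DKO, 92.4 and 88.1 CPM in Pcgf3KO, 135 and 147 CPM in Pcgf5KO, and 188 CPM in WT. Both Pcgf3KO libraries were the lowest, and Lefty2 fell there by 1.06 ± 0.09 against WT (adjusted p = 0.000979), while the DKO libraries lay on both sides of the WT value. Nodal itself had 51.8 and 52.3 CPM in DKO, 49.0 and 59.1 CPM in Pcgf3KO, 74.6 and 78.0 CPM in Pcgf5KO, and 44.5 CPM in WT. Nodal rose in Pcgf5KO by 0.78 ± 0.13 (adjusted p = 0.0189) and by 0.55 with both WT libraries (adjusted p = 0.0265), and its co-receptor Tdgf1 rose there by 0.53 ± 0.10 (adjusted p = 0.0286) but by 0.28 with both WT libraries, where it did not pass (adjusted p = 0.169). With WT replicate 1 as the only WT library Nodal was at 0.35 (adjusted p = 0.175). The Lefty2 call held without any one of the 6 knockout libraries, and each call of Fgf4, Nodal and Tdgf1 was lost without at least 1 single knockout library.

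In the heart and lateral plate list 1 gene passed the test, Tbx3 in DKO. Of its 15 genes 9 were tested, and the median log2 fold change against WT was −0.28 in DKO, −1.09 in Pcgf3KO and −0.51 in Pcgf5KO, against 0.01, 0.00 and 0.00 over all genes. All 9 had a negative value in Pcgf3KO, yet edgeR called 0 of them, with 2 at an unadjusted p under 0.05, and DESeq2 called 0. In Pcgf5KO edgeR also called 0, with 2 at an unadjusted p under 0.05, and DESeq2 called 0. Set directly against Pcgf3KO and against Pcgf5KO, DKO had 1 called gene of the 9, again Tbx3, and the other 8 did not pass (median 0.83 against Pcgf3KO and 0.54 against Pcgf5KO). DESeq2 called 1 of the 9 against Pcgf3KO and 0 against Pcgf5KO, so it did not call Tbx3 against Pcgf5KO. Tbx3 is a T-box repressor of heart conduction tissue that ES cells also use for self-renewal. It had 7.43 and 11.5 CPM in DKO, 2.17 and 1.57 CPM in Pcgf3KO, 1.48 and 2.02 CPM in Pcgf5KO, and 2.45 CPM in WT. Tbx3 was higher in DKO by 1.95 ± 0.36 against WT (adjusted p = 0.0227), by 2.33 ± 0.28 against Pcgf3KO (adjusted p = 0.00584) and by 2.45 ± 0.30 against Pcgf5KO (adjusted p = 0.0112), and both DKO libraries were above all others. The call against WT was lost without any 1 of the 4 single knockout libraries (adjusted p = 0.0528 to 0.0588), that against Pcgf3KO without either Pcgf3KO replicate (0.0867 and 0.142), and that against Pcgf5KO without either Pcgf5KO replicate (0.253 and 0.213).

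In the blood and endothelial list, 11 of 15 genes were tested, and the same pair was called in each knockout against WT. Pecam1, an adhesion molecule of endothelium that ES cells also carry, had 94.9 and 90.7 CPM in DKO, 135 and 129 CPM in Pcgf3KO, 87.1 and 85.1 CPM in Pcgf5KO, and 53.8 CPM in WT. It rose by 0.79 ± 0.10 in DKO (adjusted p = 0.00387), by 1.29 ± 0.10 in Pcgf3KO (adjusted p = 0.00077) and by 0.68 ± 0.10 in Pcgf5KO (adjusted p = 0.00971). Flt1, the sister receptor of Kdr, had 3.53 and 4.0 CPM in DKO, 4.74 and 4.75 CPM in Pcgf3KO, 3.20 and 3.48 CPM in Pcgf5KO, and 9.39 CPM in WT. It fell by 1.32 ± 0.21 in DKO (adjusted p = 0.012), by 0.98 ± 0.21 in Pcgf3KO (adjusted p = 0.044) and by 1.5 ± 0.22 in Pcgf5KO (adjusted p = 0.00949), so unlike Kdr it was also called in Pcgf5KO. The difference between the 2 receptors in Pcgf5KO was not tested, and the Flt1 call in Pcgf3KO was lost in DESeq2 (adjusted p = 0.15) and with the replicate block (adjusted p = 0.0702). That call was also lost without any 1 of the 4 single knockout libraries (adjusted p = 0.12 to 0.298), as was the Pecam1 call in Pcgf5KO (0.0513 to 0.146), and the Flt1 call in Pcgf5KO was lost without either Pcgf5KO replicate (0.145 and 0.108).

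Among the 16 other streak transcription factors 10 were tested and 1 was called against WT. Cdx2, a caudal-type homeobox gene of the posterior embryo and the trophoblast, had 0.0527 and 0.297 CPM in DKO, 0.353 and 0.336 CPM in Pcgf3KO, 0.592 and 0.485 CPM in Pcgf5KO, and 1.99 CPM in WT. These rest on 71 counts over the 7 complete libraries, and 0.0527 CPM in DKO replicate 1 is the level of 1 count. Cdx2 fell in DKO (log2 fold change −3.43 ± 0.65, adjusted p = 0.0256). The value was −2.72 without DKO replicate 1 and −5.06 without DKO replicate 2. The call was lost without any 1 of the 4 single knockout libraries (adjusted p = 0.0707 to 0.0737), and DESeq2 gave it no adjusted p. In Pcgf3KO and Pcgf5KO edgeR called 0 of the 10, with 4 and 3 at an unadjusted p under 0.05, and DESeq2 called 0. Of the 15 paraxial mesoderm and somite genes 11 were tested, and edgeR called 0 in DKO, Pcgf3KO and Pcgf5KO, with 4, 1 and 2 at an unadjusted p under 0.05, and DESeq2 called 0. Their medians were −0.52 in DKO, −0.17 in Pcgf3KO and −0.14 in Pcgf5KO.

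**Figure D5:**
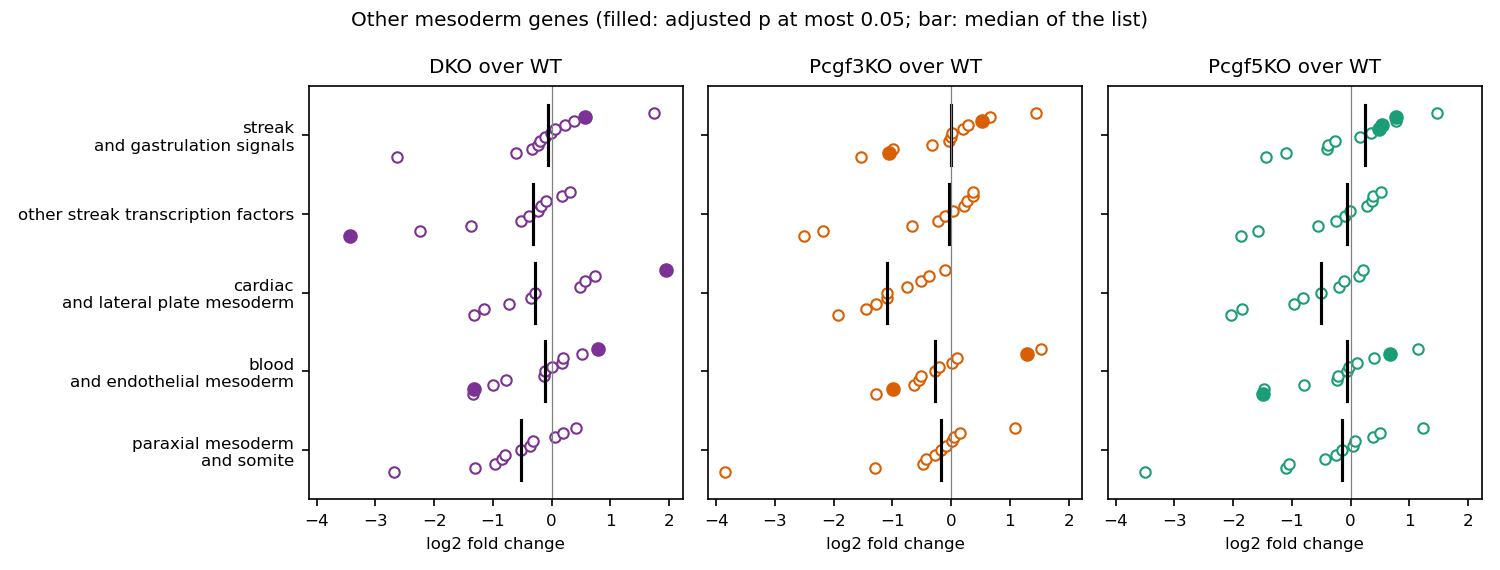
Log2 fold change over WT of the tested genes of 5 mesoderm lists (rows) in DKO, Pcgf3KO and Pcgf5KO cells (panels), with filled points at an adjusted p of at most 0.05, open points otherwise and a bar at each list's median. In the heart and lateral plate row all 9 points lie below 0 in Pcgf3KO (median −1.09), and in DKO the filled point is Tbx3 at 1.95.

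The genes with the pattern most like Tbx20, Kdr and Hand1, the members with the smallest p in any comparison, were taken by the correlation of log2 CPM over the 7 libraries among 10598 named genes. With Tbx20 these were Robo1 (r = 0.988), Car2 (0.985) and Cald1 (0.985). Car2, a carbonic anhydrase, had 11.4 and 11.3 CPM in DKO, 12.4 and 12.2 CPM in Pcgf3KO, 12.2 and 11.4 CPM in Pcgf5KO, and 36.1 CPM in WT, the same step between WT and every knockout. With Kdr they were Rexo1 (0.992), Prkd2 (0.986) and Tmem62 (0.985), and with Hand1 Phldb1 (0.972), Fuca2 (0.965) and Timp2 (0.964). Phldb1 had 53.8 and 59.1 CPM in DKO, 51.2 and 49.7 CPM in Pcgf3KO, 50.4 and 47.6 CPM in Pcgf5KO, and 59.7 CPM in WT, a far smaller range than that of Hand1. These correlations describe 7 libraries of 4 genotypes that share the WT library and carry no test. Tbx20 lay between 5.39 and 6.39 CPM in the knockout libraries and at 16.1 in WT, so its correlations rest mainly on the WT library. Robo1 had a far smaller step, with 68.4 to 71.6 CPM in the knockout libraries and 87.6 in WT. The genes most like Kdr also varied far less than Kdr, which ranged from 8.70 to 30.5 CPM. Rexo1 ranged from 75.5 to 84.9 CPM, Prkd2 from 13.1 to 20.6 and Tmem62 from 3.27 to 4.67.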

How the data were processed

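Poly-A RNA was sequenced from 8 mouse ES cell libraries (NEBNext Ultra kit, which does not mark strand, per the labels' protocols). The deposited values are whole-number read counts, with 1 table of Ensembl genes for each library, as the file headers show. The submitters' processing notes name TopHat2 2.0.12, Cufflinks 2.2.1, HTSeq 0.6.0 and mm10. The annotation release and the strand setting: not given in the sources used here. Of the identifiers, 46488 of 47069 were matched to a symbol, and 0 entries named no gene. The table of WT replicate 1 as used here lists 8093 genes (17.2%, with 3459002 counts), and any gene outside it was treated as not measured there.

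Counts were tested with edgeR 4.0.16 (R 4.3.3, glmQLFit and glmQLFTest, TMM, filterByExpr) and group as the only term. A fit of the 7 complete libraries had 15669 genes and 3 residual degrees of freedom, and a fit of all 8 libraries had 2702 genes and 4, each with Benjamini-Hochberg adjustment. Log2 CPM used a prior count of 2. Scripts were tested on simulated data. Intervals are exact Poisson at 95% and a count of 0 allows 3 counts, both for counting error only.

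The members, the gene lists and the tests were chosen with earlier results of these data known. Named genes are the members, at most 3 called genes per list and comparison by smallest p, 3 genes of most similar pattern for each of 3 members, and Pcgf3 and Pcgf5. The cell type markers named were chosen after their values were seen. A called gene of the lists is not reported here. Alternatives were DESeq2 1.42.0, RLE size factors, no filter on low counts, only the groups compared, the replicate block, each library left out, and, chosen after seeing the data, each WT library left out of the 8-library fit.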

Additional observations from a re-analysis of the deposited data

Results flagged for a closer look

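The change on Pcgf3 loss differed between cells lacking Pcgf5 (DKO minus Pcgf5KO) and cells with Pcgf5 (Pcgf3KO minus WT) for 6 of the genes reported among the members and the mesoderm lists, by the interaction term of edgeR's quasi-likelihood test over 15669 genes. The genes tested were 9 members and 12, 10, 9, 11 and 11 genes of the 5 lists, and 3.79% of all genes were called in this term. Hand1 had a difference of 4.64 (adjusted p = 0.00821), with 2.34 in cells lacking Pcgf5 and −2.30 in cells with it. Tbx20 had a difference of 1.35 (adjusted p = 0.0222), with −0.10 in cells lacking Pcgf5 and −1.45 in cells with it. Tbx3 had a difference of 2.84 (adjusted p = 0.0176), with 2.45 in cells lacking Pcgf5 and −0.38 in cells with it. Lefty2 differed by 1.45 (adjusted p = 0.00128), with 0.39 in cells lacking Pcgf5 and −1.06 in cells with it. The remaining pair was negative: Pecam1 differed by −1.18 (adjusted p = 0.00292) and Nodal by −0.83 (adjusted p = 0.0289). The Lefty2 and Pecam1 terms were called without any one of the 6 knockout libraries, and each of the other 4 was lost without at least 1 single knockout library. All 6 differences rest on 1 WT library, and the cause was not tested.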

How the results depend on the processing

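RLE size factors changed no count of called members, and DESeq2 changed 1 beyond 1.5 times, Pcgf5KO minus Pcgf3KO, where it called 1 member (Kdr) and edgeR 0. Without the filter 3 members were called in DKO minus Pcgf3KO, 2 in Pcgf5KO minus Pcgf3KO and 4 in the interaction. With only the groups compared in the fit the counts were 5 for Pcgf3KO minus WT, 0 for DKO minus Pcgf5KO and 4 for Pcgf5KO minus Pcgf3KO, and no interaction could be fitted. Leaving out 1 library gave 0 to 5 called members for Pcgf3KO minus WT, 0 to 3 for Pcgf5KO minus WT, 2 to 3 for DKO minus WT, 0 to 4 for DKO minus Pcgf3KO, 0 to 3 for DKO minus Pcgf5KO, 0 to 4 for Pcgf5KO minus Pcgf3KO and 0 to 4 for the interaction. The high ends came without a DKO replicate, where the spread is estimated from the Pcgf3KO and Pcgf5KO pairs alone, and each low end was reached without a single knockout replicate. No value against WT could be had without WT replicate 2 in the 7-library fit, which already lacks WT replicate 1, and the 8-library fit covers 3 members only. Signs turned in the 8-library fits for Kdr in Pcgf5KO minus WT (0.072, and 0.69 without WT replicate 2), Eomes in Pcgf5KO minus WT without WT replicate 2 (−0.18), Eomes in DKO minus WT (−0.17, and −0.39 without WT replicate 2) and the Kdr interaction (−0.23, and −0.86 without WT replicate 2). Where leaving out 1 library turned a sign, the values over all left-out libraries were, in DKO minus WT, −0.57 to 0.22 for Wnt3, −1.52 to 0.019 for Hand1 and −0.23 to 0.31 for Eomes. They were −0.46 to 0.070 for Kdr in DKO minus Pcgf3KO, −0.51 to 0.032 for Eomes in DKO minus Pcgf5KO, −0.078 to 0.12 for Tbx20 in Pcgf5KO minus Pcgf3KO and −0.092 to 0.44 for the Kdr interaction. None of these 7 was called in the fit of the 7 libraries, but 3 low ends, all without DKO replicate 2, passed the test: Hand1 in DKO minus WT (adjusted p = 1.51e-11), Kdr in DKO minus Pcgf3KO (0.0152) and Eomes in DKO minus Pcgf5KO (0.0472). The replicate numbers were not taken as pairs, since the replicate deviations of DKO and Pcgf3KO correlated at 0.136, DKO and Pcgf5KO at 0.0101, and Pcgf3KO and Pcgf5KO at −0.0139. With the replicate block, DKO minus Pcgf3KO had 2 called members (Hand1 1.65, adjusted p = 0.0145, and Wnt3 3.46, adjusted p = 0.0175), Pcgf5KO minus Pcgf3KO had 1 (Kdr 0.98, adjusted p = 0.0284), the interaction had 3, and Wnt3 in DKO minus WT turned to 0.29. Among the called values of members and named list genes the block ended 1, Flt1 in Pcgf3KO minus WT (−0.93, adjusted p = 0.0702). Counts over all genes moved far more: leaving out 1 library gave 46 to 3167 for Pcgf3KO minus WT (370 in full), 37 to 4119 for Pcgf5KO minus WT (468), 165 to 5379 for DKO minus WT (505), 7 to 5571 for DKO minus Pcgf3KO (272), 3 to 6583 for DKO minus Pcgf5KO (357), 3 to 1909 for Pcgf5KO minus Pcgf3KO (22) and 35 to 5712 for the interaction (594). With only the groups compared these were 3030, 4882, 329, 35, 7 and 1874 (no interaction), and without the filter 1105, 1222, 1474, 1355, 2312, 224 and 1904. The block gave 499, 1532 and 62 for the 3 comparisons between knockouts and 1305 for the interaction, and DESeq2 gave 804 for DKO minus Pcgf5KO and 79 for Pcgf5KO minus Pcgf3KO. Depth limits T, Mixl1, Mesp1, Tbx6 and Isl1, with at most 18 counts in any library.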

Other observations

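Among tested genes of the wider mesoderm lists that did not pass, values lay on both sides of 0. Tie1, a receptor of endothelium, had 0.53 in DKO, 1.52 in Pcgf3KO and 1.14 in Pcgf5KO on the log2 scale against WT, with 57 counts over the 7 complete libraries. Myocd, a coactivator of heart and smooth muscle genes, had −1.32, −1.92 and −1.85 in the same genotypes, with 78 counts. Neither was called, and both were picked out after their values were seen. The somite gene Msgn1 was at 0 counts in all 7 complete libraries.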
